A study of Mus musculus with 42 samples.

Results

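The genes described here encode the receptor, ligand and signaling proteins shared by interleukin 2 (IL-2) and interleukin 15 (IL-15). They are Il2rb, Il2rg, Il15ra, Il15, Jak3, Stat5a, Stat5b and Cish, 8 of the 26811 genes of the count table, and the rule that chose them names them as members of the pathway. Levels were measured by poly(A) RNA-seq of whole tumors from 42 female mice aged 8 to 12 weeks, which carried MC38, an established line from a mouse colon carcinoma, under the skin. All mice were F1 hybrids of the strains CC075/UncJ and C57BL/6J (CC75xB6), with each tumor begun from the same number of cells. Every tumor received antibodies of 1 of 5 treatments. The isotype control group (n = 5) received control antibodies only. The other groups received 200 μg of aPD1, an antibody against the checkpoint receptor PD-1, either without a blocking antibody (aPD1, n = 6), with 100 μg doses of aGMCSF against the cytokine GM-CSF (aPD1 + aGMCSF, n = 9), with 200 μg doses of aIL2RB against the IL-2 receptor β chain (aPD1 + aIL2RB, n = 11), or with both (aPD1 + aGMCSF + aIL2RB, n = 11). Blocking antibodies or their isotypes were injected into the abdomen every 3 days from engraftment, the single aPD1 or isotype dose followed when a tumor reached 75 to 110 mm3, and tumors were taken 48 h later. According to the study's methods, the aPD1 group also received the isotypes of the blocking antibodies. The antibodies were given to the whole animal, so host cells of every type were exposed to them.

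IL-2 and IL-15 signal through receptors that share the β chain, encoded by Il2rb, and the common γ chain, encoded by Il2rg, each joined by its own α chain, encoded by Il2ra or Il15ra. The α chain of the IL-15 receptor presents IL-15 to neighboring cells that carry the β and γ chains. JAK3 binds the common γ chain, and STAT5A and STAT5B are the transcription factors that the receptors activate. Cish is a direct target gene of STAT5, and its protein, CIS, is a feedback inhibitor of cytokine signaling. In tumors the β chain is known mainly from T cells and natural killer (NK) cells, whereas the γ chain is present on most leukocytes, and IL-15 is made mainly by myeloid and stromal cells.

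Total counts ranged from 7155486 to 24101674 per tumor, with 1 tumor (aPD1 + aGMCSF + aIL2RB replicate 4) below 15109228. Levels are given as CPM, expected counts scaled to a common library size after TMM normalization, and groups were compared with edgeR's quasi-likelihood test across 16932 genes, with a threshold of 0.05 on the adjusted p. The labels call the tumors biological replicates. The tumors also differed along their replicate numbers, a division that neither the labels nor the study's methods name: the lower numbers of each group (22 tumors) are called earlier and the others (20 tumors) later, and calls that were lost or gained within either are given below. Markers of colon carcinoma epithelium were near 0 in many tumors, with Krt8 and Krt18 at 0 counts in 10 of the 42 and Epcam at 0 in 9, and the highest sum over the 6 genes measured was 28.7 CPM. Il2rb mRNA does not check the labels, because aIL2RB binds the protein and not the transcript.

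All 8 genes are protein coding, and their positions are those of the GRCm38 annotation (GENCODE vM21). Il2rb (ENSMUSG00000068227) lies on chromosome 15 from 78479256 to 78495271, Il2rg (ENSMUSG00000031304) on chromosome X from 101264378 to 101268255, and Il15ra (ENSMUSG00000023206) on chromosome 2 from 11705290 to 11734317, next to Il2ra, which ends at 11693193. Il15 (ENSMUSG00000031712) and Jak3 (ENSMUSG00000031805) are both on chromosome 8, from 82331632 to 82403222 and from 71676296 to 71690575. Stat5b (ENSMUSG00000020919, 100780731 to 100850724) and Stat5a (ENSMUSG00000004043, 100859351 to 100885169) are neighbors on chromosome 11, separated by 8626 bases and transcribed away from each other. Cish (ENSMUSG00000032578) lies on chromosome 9 from 107296026 to 107302784.

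Because Cish is a known STAT5 target, the RefSeq promoter windows of the genes, 300 bases from 250 before to 50 after the start, were searched for TTCNNNGAA, the core of a STAT site, which reads the same on both strands. Windows were present for Il2rg, Il15ra, Jak3, Stat5a, Stat5b and Cish, 9 windows in all. Cish was the only one with a match and held 2, which do not overlap and are separated by 2 bases. They lie within this 30-base stretch on the plus strand of GRCm38.p6, chr9:107296649-107296678, shown because Cish had the lowest adjusted p of the 8 genes, with the matches in capitals:
Cish: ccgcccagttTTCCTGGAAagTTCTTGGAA
The first match begins at the RefSeq start, so both lie in the first 20 transcribed bases of that model, and the stretch is inside an exon of 1 of the 5 Cish transcripts of GENCODE vM21. The motif occurs in 8.30% of the 32851 promoter windows of the table. An interferon response motif (GAAA, any 2 bases, GAAA), searched on both strands, was in 3.44% of all windows and in none of the 9. These matches describe letters in a window and were not tied to binding by any measurement here.

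Per length of the annotated exons, Il2rg was the most abundant of the 8 genes and Cish the least in all 5 groups. The length was that of all annotated exons of a gene together, over all its transcripts. For Stat5a it was 7133 bases, whereas its longest transcript has 3958, so the order depends on the length used. In isotype control tumors the order was Il2rg at 21.97 ± 2.09 CPM per kb, Stat5b at 12.9 ± 0.749, Il15ra at 10.1 ± 0.889, Jak3 at 6.23 ± 0.367, Il2rb at 4.48 ± 0.726, Il15 at 3.22 ± 0.873, Stat5a at 2.81 ± 0.157 and Cish at 0.619 ± 0.234 (SD, n = 5). Of the neighbors in this order, Il2rb overlapped with Il15 and Il15 with Stat5a, and the others did not overlap. Il2rb changed its place: at 9.77 ± 2.97 CPM per kb (SD, n = 6) in aPD1 tumors it ranked above Jak3, and at 0.848 ± 0.753 in aPD1 + aIL2RB and 1.14 ± 1.40 in aPD1 + aGMCSF + aIL2RB tumors (SD, n = 11 each) it ranked below Stat5a and Il15. These genes overlapped in each case. In aPD1 Il2rb ran from 7.09 to 14.6 and Jak3 from 5.93 to 8.88. With aIL2RB Il2rb reached 2.63, and the lowest Stat5a and Il15 were 2.39 and 1.83. With both Il2rb reached 4.47, above the highest Stat5a (3.25) and Il15 (3.92). The other levels below are CPM without division by length and compare a gene only with itself.

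**Figure D1:**
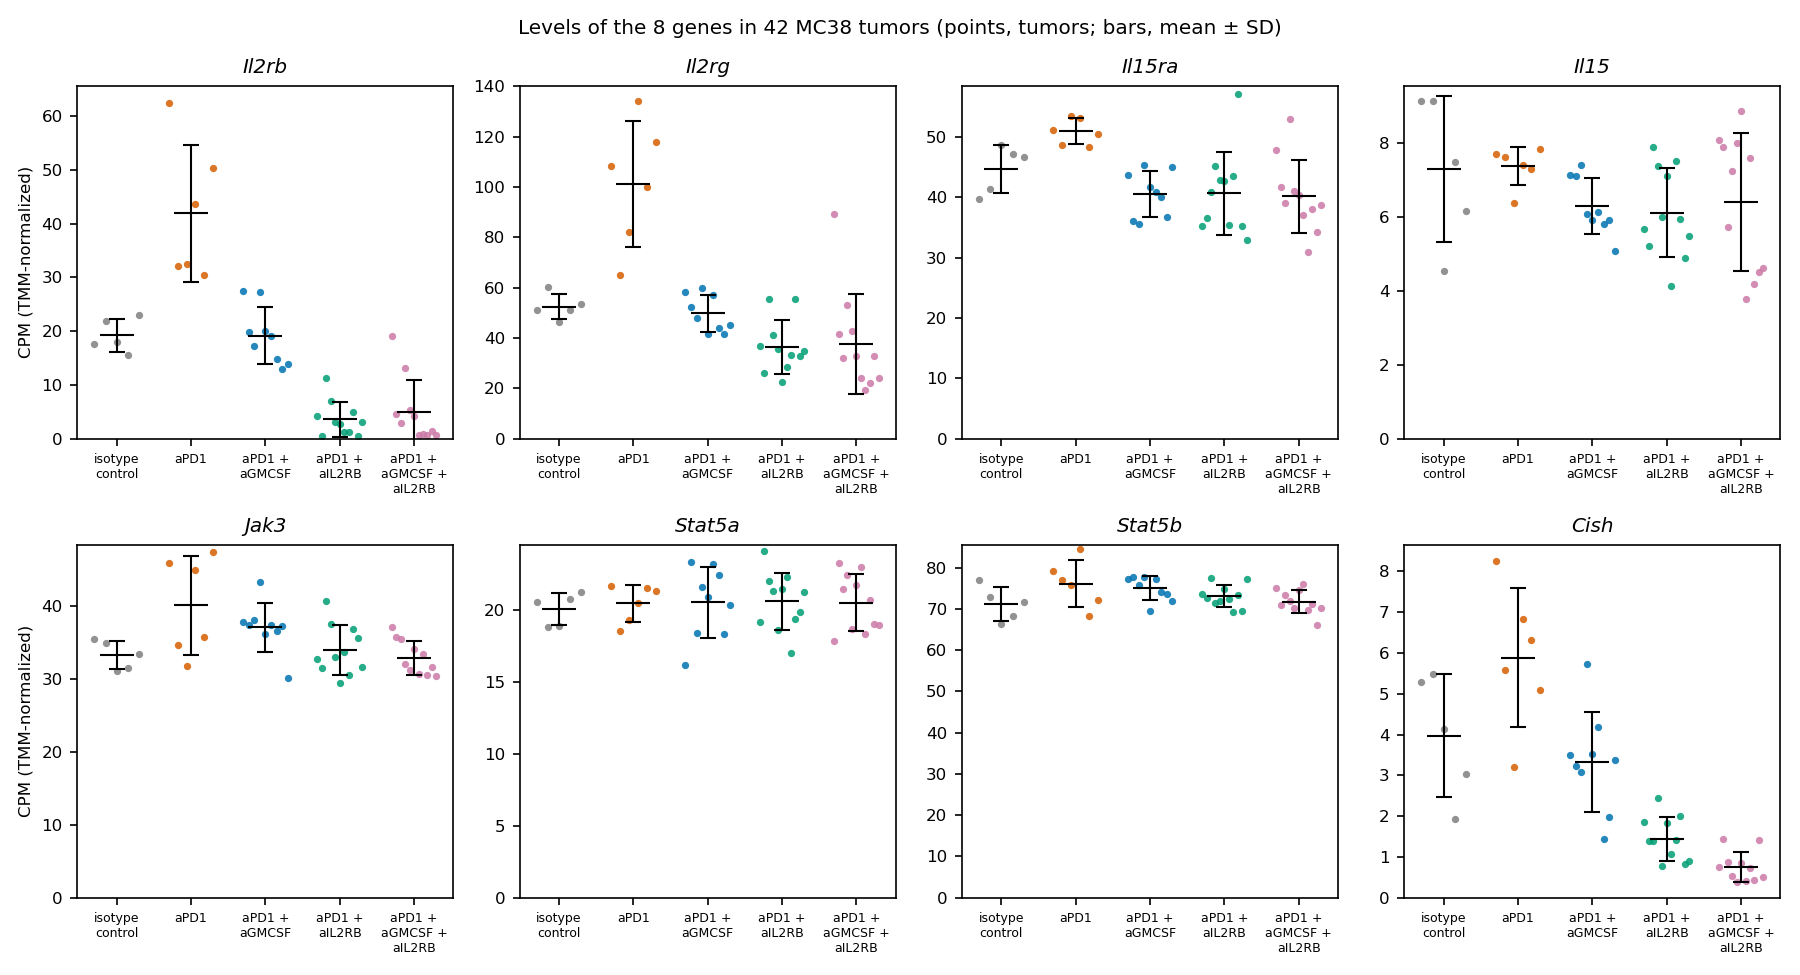
Level of each gene (CPM on linear axes from 0) in each of the 42 tumors by treatment, with the group mean and SD. Il2rb and Cish are lowest in the groups given aIL2RB, with means of 3.63 and 4.89 CPM for Il2rb against 41.9 in aPD1, while Stat5a stays between means of 20.05 and 20.6 CPM.

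The β chain gene Il2rb had the largest ratio of the 8 genes between the highest and the lowest group mean. In the 5 isotype control tumors it was at 17.7, 21.9, 17.99, 15.6 and 23.03 CPM. After aPD1 the lowest, median and highest tumor were at 30.4, 38.04 and 62.4 CPM, so every aPD1 tumor was above every isotype control tumor. With aGMCSF added the same values were 13.01, 19.1 and 27.5 CPM, all below the aPD1 tumors and overlapping with isotype control. With aIL2RB added, the lowest, median and highest tumor were at 0.479, 3.08 and 11.3 CPM, from 9 to 189 counts, and none reached the lowest isotype control tumor. With both blocking antibodies they were at 0.623, 2.99 and 19.2 CPM, from 13 to 366 counts, and only the highest tumor, replicate 1, entered the isotype control range.

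Group means of Il2rb were 19.2 ± 3.11 CPM in isotype control (SD, n = 5), 41.9 ± 12.7 in aPD1 (SD, n = 6), 19.2 ± 5.30 in aPD1 + aGMCSF (SD, n = 9), 3.63 ± 3.23 in aPD1 + aIL2RB and 4.89 ± 5.98 in aPD1 + aGMCSF + aIL2RB tumors (SD, n = 11 each). Against aPD1, Il2rb fell by 3.55 on the log2 scale with aIL2RB (SE 0.48, adjusted p = 5.22e-07), which is 11.7-fold lower, and by 3.17 with both antibodies (SE 0.47, adjusted p = 3.36e-06), 8.99-fold lower. Il2rb was also lower than in isotype control, by −2.43 with aIL2RB (adjusted p = 0.00327) and −2.04 with both (adjusted p = 0.00839), and lower than with aGMCSF, by −2.42 and −2.04 (adjusted p = 0.00133 and 0.00971). The difference between aPD1 and isotype control was 1.12 (SE 0.56, adjusted p = 0.210) and that between aPD1 + aGMCSF and aPD1 was −1.13 (SE 0.47, adjusted p = 0.104). Neither passed the threshold although the groups did not overlap, and genes with no overlap in these directions made up 3.37% and 2.2% of those tested. When only the groups compared entered the fit, which leaves the aIL2RB groups out of the estimate of the spread, the adjusted p of these Il2rb differences were 0.00373 and 0.000298. The difference with aGMCSF also passed with earlier or later numbers as a term (−1.27, adjusted p = 0.0282). Between aPD1 + aGMCSF + aIL2RB and aPD1 + aIL2RB the Il2rb difference was smaller than its SE (95% interval −0.52 to 1.29). It changed sign without aPD1 + aGMCSF + aIL2RB replicate 1 and in the later replicate numbers, where it was −1.33, and the later minus earlier difference was −2.09 (adjusted p = 0.132), which did not pass.

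Markers of lymphocytes were lower in the same groups. Of 8 T cell markers (Cd3d, Cd3e, Cd3g, Cd247, Trac, Cd8a, Cd8b1 and Cd4), 7 fell with aIL2RB and all 8 with both antibodies against aPD1, and 5 of 5 NK markers (Ncr1, Klrb1c, Klrk1, Klrd1 and Eomes) fell in each. Their summed level ran from 70.2 to 137 CPM for T cells in aPD1 tumors, from 3.48 to 32.9 in aPD1 + aIL2RB and from 2.46 to 73.1 in aPD1 + aGMCSF + aIL2RB tumors. For NK markers the ranges were 32.3 to 68.0, 4.40 to 14.8 and 2.00 to 34.7 CPM. No marker was at 0 in every tumor, though Ncr1, which defines NK cells, was at 0 counts in 21 of the 42. The summed NK markers rest mostly on Klrk1, with a median of 185 counts over all tumors. The medians were 46.5 for Eomes, 33.5 for Klrd1, 6.65 for Klrb1c and 1 for Ncr1. In bulk tumors, fewer cells of a type and less RNA per cell cannot be told apart, and the part of these markers in the Il2rb result was not tested. Within each tumor, the ratio of Il2rb to the summed T cell markers ran from 0.332 to 0.552 with a median of 0.375 in isotype control, from 0.394 to 0.458 in aPD1 and from 0.345 to 0.535 in aPD1 + aGMCSF tumors. With aIL2RB it ran from 0.0861 to 0.413 with a median of 0.310, and with both antibodies from 0.140 to 0.410 with a median of 0.242, and these ranges overlapped with those of the other groups. Against the NK markers the median ratio was 0.807 in isotype control, 0.842 in aPD1, 0.803 in aPD1 + aGMCSF, 0.414 in aPD1 + aIL2RB and 0.429 in aPD1 + aGMCSF + aIL2RB tumors. These ratios were chosen after the values were seen and carry no test.

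**Figure D2:**
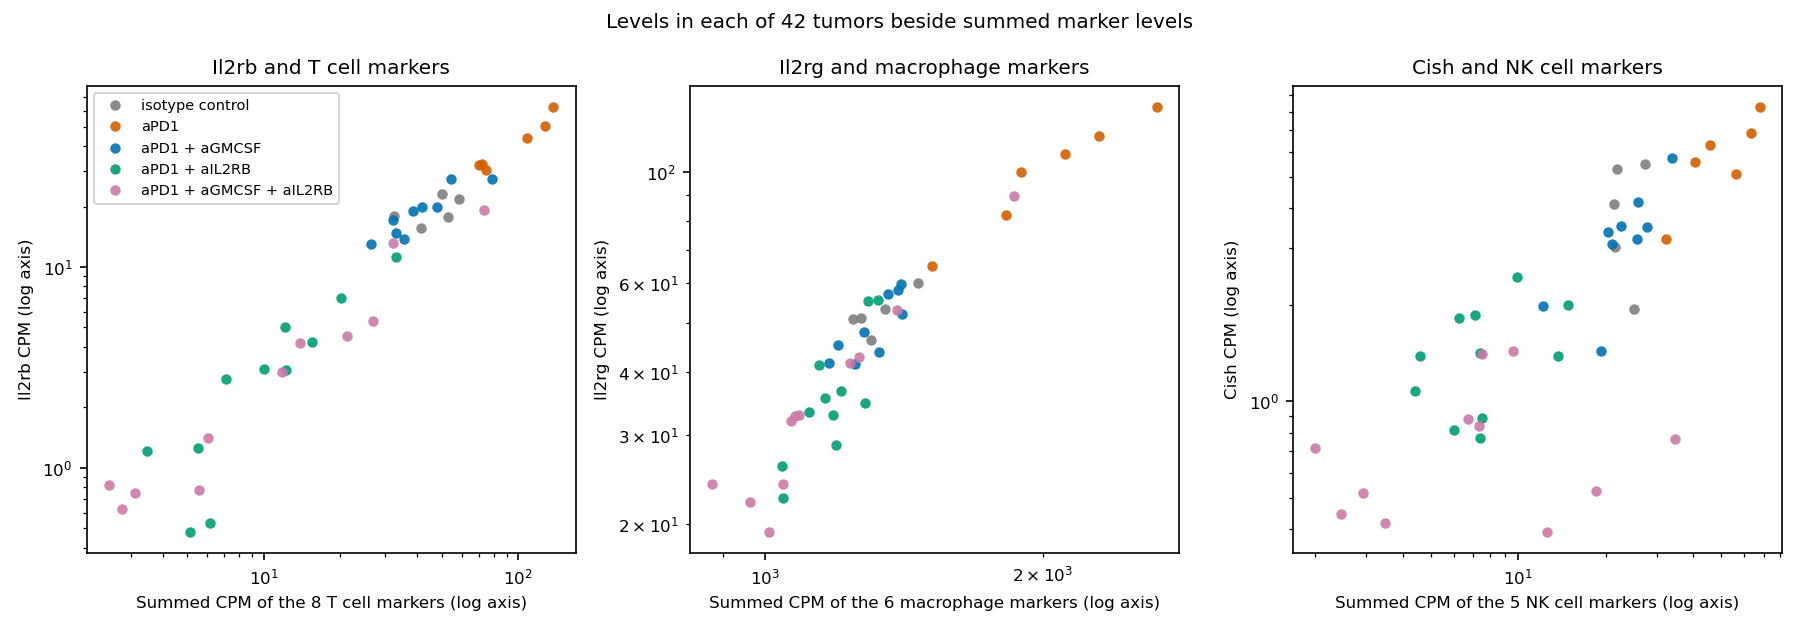
Il2rb beside the summed CPM of 8 T cell markers, Il2rg beside 6 macrophage markers and Cish beside 5 NK cell markers, each point 1 of 42 tumors on log axes, colored by treatment. Il2rb and T cell markers are highest in aPD1 tumors (T cell sums of 70.2 to 137 CPM) and lowest in the groups given aIL2RB. In aPD1 + aGMCSF + aIL2RB tumors Cish is at 0.392 to 1.44 CPM beside NK cell sums of 2.00 to 34.7 CPM.

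Il2rg, the common γ chain gene, was 1.93-fold higher after aPD1 and fell with each blocking antibody. The 5 isotype control tumors were at 51.3, 60.1, 46.4, 51.1 and 53.4 CPM. The lowest, median and highest aPD1 tumor were at 64.8, 104 and 134 CPM, all above isotype control. With aGMCSF they were at 41.4, 48.1 and 59.7, with aIL2RB at 22.5, 34.7 and 55.7, and with both at 19.2, 32.7 and 89.5 CPM. The aPD1 + aGMCSF and aPD1 + aIL2RB tumors all lay below the lowest aPD1 tumor, whereas replicate 1 of aPD1 + aGMCSF + aIL2RB lay within the aPD1 range.

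Il2rg rose after aPD1 by 0.95 on the log2 scale (SE 0.25, adjusted p = 0.0153), although without aPD1 replicate 4 the change was 0.85 with an adjusted p of 0.0535. It fell against aPD1 by 1.03 with aGMCSF (SE 0.21, adjusted p = 0.00126), by 1.47 with aIL2RB (SE 0.20, adjusted p = 8.56e-07) and by 1.43 with both (SE 0.20, adjusted p = 1.84e-06). Against isotype control the difference was −0.52 with aIL2RB (adjusted p = 0.192) and −0.49 with both (adjusted p = 0.150). Without aPD1 + aGMCSF + aIL2RB replicate 1, the tumor with the highest Il2rg of its group, the latter was −0.70 with an adjusted p of 0.0107, and the difference from aPD1 + aGMCSF went from −0.41 (adjusted p = 0.251) to −0.63 (adjusted p = 0.0151). Macrophage markers (Adgre1, Csf1r, C1qa, C1qb, C1qc and Mrc1) moved with Il2rg: all 6 rose after aPD1, all 6 fell with aGMCSF and 5 of 6 fell with aIL2RB and with both. Their summed level had medians of 1303 CPM in isotype control, 2006 in aPD1, 1329 in aPD1 + aGMCSF, 1184 in aPD1 + aIL2RB and 1077 in aPD1 + aGMCSF + aIL2RB tumors. The ratio of Il2rg to this sum was not constant, with medians of 0.0404, 0.0508, 0.0376, 0.0298 and 0.0302 in the same order. It ran from 0.0356 to 0.0410 in isotype control and from 0.0427 to 0.0527 in aPD1 tumors, without overlap. With aGMCSF it ran from 0.0330 to 0.0425, below aPD1. With aIL2RB (0.0215 to 0.0430) and with both (0.0191 to 0.0481) it overlapped with aPD1. Ptprc, carried by leukocytes in general, ranged from 205 to 412 CPM in aPD1 tumors and from 94.8 to 187 in aPD1 + aIL2RB tumors, and the ratio of Il2rg to Ptprc had medians of 0.339, 0.318, 0.289, 0.293 and 0.238 in the 5 groups in the same order. The part of these markers in the Il2rg result was not tested.

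The IL-15 receptor α chain gene Il15ra changed by less. It was at 39.7 to 48.7 CPM in isotype control, 48.4 to 53.6 in aPD1, 35.7 to 45.4 in aPD1 + aGMCSF, 32.95 to 57.1 in aPD1 + aIL2RB and 30.9 to 53.1 in aPD1 + aGMCSF + aIL2RB tumors. Only aPD1 and aPD1 + aGMCSF tumors did not overlap. Il15ra fell against aPD1 by 0.33 with aGMCSF (SE 0.09, adjusted p = 0.0130), 0.32 with aIL2RB (SE 0.09, adjusted p = 0.00462) and 0.35 with both (SE 0.09, adjusted p = 0.00271). Its difference between aPD1 and isotype control was 0.19 (SE 0.11, adjusted p = 0.280). With library size in place of TMM, the Il15ra difference with aGMCSF was −0.27 with an adjusted p of 0.0633, and each of the 3 calls against aPD1 was lost within at least 1 set of replicate numbers.

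Il15, the ligand, passed the threshold in none of the 10 pairs of groups. Its means were 7.28 ± 1.97 CPM in isotype control (SD, n = 5), 7.37 ± 0.521 in aPD1 (SD, n = 6), 6.28 ± 0.763 in aPD1 + aGMCSF (SD, n = 9), 6.11 ± 1.202 in aPD1 + aIL2RB and 6.40 ± 1.86 in aPD1 + aGMCSF + aIL2RB tumors (SD, n = 11 each), and all groups overlapped. Between aPD1 and isotype control the 95% interval of the Il15 difference was −0.36 to 0.40 on the log2 scale, and against aPD1 it was −0.56 to 0.10 with aGMCSF, −0.59 to 0.05 with aIL2RB and −0.52 to 0.11 with both. In tumors with both blocking antibodies Il15 was at 7.63 ± 1.06 CPM in the earlier 6 and 4.94 ± 1.52 in the later 5 (SD), with ranges of 5.73 to 8.87 and 3.77 to 7.60 CPM that overlapped, and the difference of its change against aPD1 between these numbers did not pass (adjusted p = 0.0873). Il2, the other ligand, was not among the 8 genes and had at most 7.1 counts in any tumor, too few to be tested.

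Jak3 in aPD1 tumors was at most 1.22-fold above any other group. Jak3 means were 33.3 ± 1.96 CPM in isotype control (SD, n = 5), 40.1 ± 6.79 in aPD1 (SD, n = 6), 37.2 ± 3.37 in aPD1 + aGMCSF (SD, n = 9), 33.99 ± 3.40 in aPD1 + aIL2RB and 32.97 ± 2.35 in aPD1 + aGMCSF + aIL2RB tumors (SD, n = 11 each). All pairs of groups overlapped. Jak3 was higher in aPD1 than in isotype control by 0.27 (SE 0.09, adjusted p = 0.0444), a call that was lost with library size in place of TMM (0.18, adjusted p = 0.161), with a total of at least 5 counts as the filter (0.27, adjusted p = 0.0685), with only the groups compared in the fit (0.27, adjusted p = 0.142), which gained Il2rb, and without any of 8 of the 11 tumors compared (all 5 of isotype control and aPD1 replicates 1, 4 and 6). Jak3 fell against aPD1 by 0.24 with aIL2RB (SE 0.07, adjusted p = 0.0103) and by 0.28 with both (SE 0.07, adjusted p = 0.00272). The first of these had an adjusted p of 0.0635 without aPD1 replicate 6 and 0.0710 with library size. Neither passed in the earlier replicate numbers, where the Jak3 values were −0.13 with aIL2RB (adjusted p = 0.437) and −0.12 with both (adjusted p = 0.533). With aGMCSF the Jak3 difference was −0.11 (adjusted p = 0.361).

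Stat5a and Stat5b did not pass the threshold in any pair of groups. Stat5a group means lay between 20.05 and 20.6 CPM and Stat5b group means between 71.2 and 76.1 CPM. For Stat5a the 95% intervals against aPD1 were −0.15 to 0.16 with aGMCSF, −0.14 to 0.15 with aIL2RB and −0.15 to 0.15 with both on the log2 scale. Stat5b was 0.09 lower with both antibodies than with aPD1 alone (SE 0.04, adjusted p = 0.0955), a difference that passed with DESeq2 (−0.10, adjusted p = 0.0432), with DESeq2's size factors (−0.10, adjusted p = 0.0491), among genes with at least 10 counts in every tumor (−0.10, adjusted p = 0.0337) and without aPD1 replicate 5 (−0.12, adjusted p = 0.0214). Reads were shared out between these 2 neighboring genes, whose transcripts are alike in part: in 39 tumors the count of each was fractional, whereas the Stat5a and Stat5b counts added up to a whole number in every tumor, within a tolerance of 1e-06 counts. Their levels are therefore not independent. Of the windows of 25 bases along the longest Stat5a transcript, 17.4% also occurred in Stat5b transcripts, and of windows of 100 bases, the read length, 2.85%.

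Cish, the STAT5 target and feedback gene, was lowest in the groups given aIL2RB. The 5 isotype control tumors were at 5.29, 5.48, 4.13, 1.94 and 3.04 CPM. The lowest, median and highest tumor were at 3.22, 5.95 and 8.26 CPM after aPD1 and at 1.44, 3.37 and 5.73 with aGMCSF. With aIL2RB they were at 0.771, 1.38 and 2.44 CPM (18 to 44.7 counts), and with both antibodies at 0.392, 0.719 and 1.44 CPM (4 to 34 counts). Every tumor of both aIL2RB groups was below every aPD1 tumor, and every tumor with both antibodies was also below every isotype control tumor.

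Against aPD1, Cish fell by 2.03 on the log2 scale with aIL2RB (SE 0.26, adjusted p = 3.62e-07), 4.08-fold lower, and by 2.92 with both antibodies (SE 0.27, adjusted p = 4.51e-10), 7.56-fold lower. Cish was lower than in isotype control by −1.46 with aIL2RB (adjusted p = 0.00165) and −2.35 with both (adjusted p = 5.24e-07), and lower than with aGMCSF by −1.21 (adjusted p = 0.00379) and −2.10 (adjusted p = 1.19e-06). With aGMCSF alone, Cish fell against aPD1 by 0.81 (SE 0.27, adjusted p = 0.0378), and this call was lost without any of 8 of the 15 tumors compared, with adjusted p up to 0.110. These were aPD1 replicates 1, 4 and 5 and aPD1 + aGMCSF replicates 2, 3, 7, 8 and 9. With library size in place of TMM it was −0.75 with an adjusted p of 0.0529. The Cish difference between aPD1 and isotype control was 0.57 (SE 0.32, adjusted p = 0.270).

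Adding aGMCSF to aPD1 + aIL2RB gave a Cish difference of −0.89 (SE 0.25, 95% interval −1.40 to −0.38). Its adjusted p was 0.576 with edgeR and 0.462 with DESeq2, and over the alternatives it ran from 0.225 to 0.849 with differences from −1.03 to −0.79. In this comparison 0.00591% of all genes tested passed the threshold in edgeR, and Cish was the only 1 of the 8 genes with an unadjusted p under 0.05. Cish means were 1.44 ± 0.540 CPM in aPD1 + aIL2RB and 0.759 ± 0.370 in aPD1 + aGMCSF + aIL2RB tumors (SD, n = 11 each), and the groups overlapped. Replicates 1, 4 and 5 of aPD1 + aGMCSF + aIL2RB, named after their values were seen, had Il2rb at 19.2, 13.2 and 5.38 CPM, the highest of their group, beside Cish at 0.765, 0.527 and 0.392 CPM. The Cish median of this group was 0.719 CPM, so replicate 1 lay above it. Replicate 4 had the lowest total of all tumors, 7155486 counts. Cish relative to the summed NK cell markers had a median of 0.194 in isotype control, 0.115 in aPD1, 0.156 in aPD1 + aGMCSF, 0.190 in aPD1 + aIL2RB and 0.131 in aPD1 + aGMCSF + aIL2RB tumors. Relative to T cell markers the Cish medians were 0.0936, 0.0616, 0.0755, 0.132 and 0.0746 in the same order, and relative to Ptprc they were 0.0256, 0.0192, 0.0194, 0.0120 and 0.00560. The Cish ratios spread widely within groups. To NK cell markers they ran from 0.101 to 0.302 with aIL2RB and from 0.0220 to 0.359 with both. To T cell markers they ran from 0.0420 to 0.405 with aIL2RB and from 0.0105 to 0.292 with both. The part of these markers in the Cish result was not tested.

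**Figure D3:**
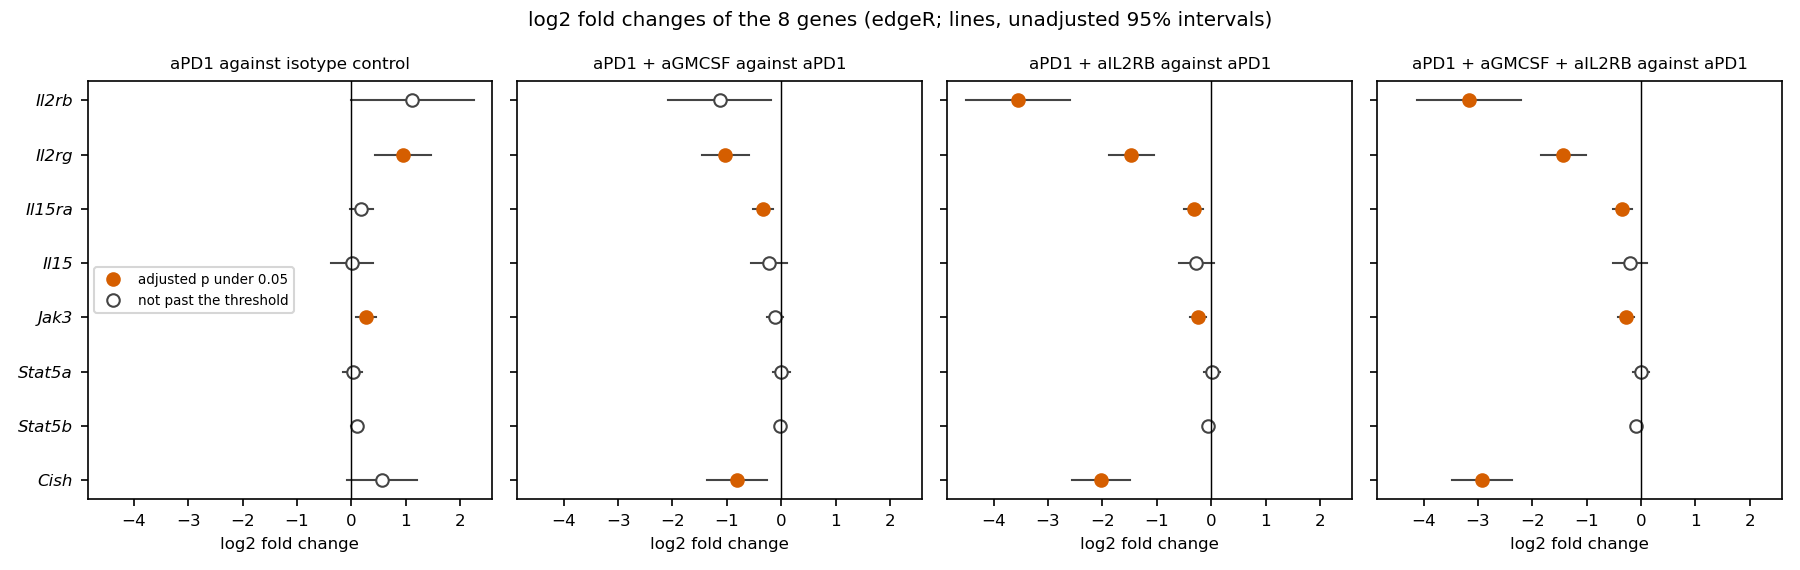
log2 fold changes of the 8 genes with unadjusted 95% intervals for aPD1 against isotype control and for each blocking treatment against aPD1, filled where the adjusted p of edgeR was under 0.05. Il2rb, Il2rg and Cish lie farthest from 0, at −3.55, −1.47 and −2.03 with aIL2RB, and Stat5a lies at 0 in each panel within its interval.

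Counted over the pathway, 2 of the 8 genes were higher after aPD1 (Il2rg and Jak3), where 8.71% of all genes tested passed in either direction and 6.17% were higher. With aGMCSF 3 of 8 were lower than in aPD1 (Il2rg, Il15ra and Cish), beside 13.5% of all genes in either direction and 8.75% lower. With aIL2RB and with both antibodies the same 5 genes, Il2rb, Il2rg, Il15ra, Jak3 and Cish, were lower than in aPD1 and none was higher, beside 27.4% of all genes in either direction in each and 14.5% and 14.3% lower. Groups did not overlap for 3 of these with aIL2RB (Il2rb, Il2rg and Cish) and 2 with both (Il2rb and Cish), as for 2.98% and 0.839% of all genes. The median log2 fold change of the 8 genes was 0.23, −0.28, −0.30 and −0.32 in these comparisons, and that of all genes ran from −0.0023 to 0.0107. All 4 comparisons share the 6 aPD1 tumors, so they are not independent of each other. Markers of skeletal muscle (Acta1, Ckm and Myh4) also differed between these groups: all 3 were higher after aPD1 (median log2 fold change 4.37) and all 3 lower with aIL2RB (median −3.02), with median sums of 0.582 CPM in isotype control, 100.0 in aPD1, 18.4 in aPD1 + aGMCSF, 20.6 in aPD1 + aIL2RB and 36.99 in aPD1 + aGMCSF + aIL2RB tumors, and their part in these counts was not tested. Against isotype control, none of the 8 passed with aGMCSF in edgeR or DESeq2 or at an unadjusted p under 0.05, beside 0% of all genes. Against isotype control, Il2rb and Cish were lower with aIL2RB and with both, beside 3.2% and 10.2% of all genes. With aIL2RB only Il2rb did not overlap with isotype control, beside 0.526% of all genes, and with both only Cish, beside 0.797%. Il2rb and Cish were also the 2 genes called lower than with aGMCSF, beside 1.52% of all genes for aIL2RB and 2.13% for both. Il2rb with aIL2RB did not overlap with aPD1 + aGMCSF, beside 0.154% of all genes. None passed between aPD1 + aGMCSF + aIL2RB and aPD1 + aIL2RB in edgeR or DESeq2.

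The change made by aGMCSF differed with the presence of aIL2RB for Il2rg. This difference of differences, (aPD1 + aGMCSF + aIL2RB minus aPD1 + aIL2RB) minus (aPD1 + aGMCSF minus aPD1), was 1.06 (SE 0.28, adjusted p = 0.0154) on the log2 scale, beside 8.34% of all genes tested. Il2rg was 1.03 lower with aGMCSF than without it in tumors not given aIL2RB, and in tumors given aIL2RB the 95% interval of this difference was −0.33 to 0.40, although within the later replicate numbers the Il2rg difference there was −0.60 (adjusted p = 0.0464). Within the earlier and the later replicate numbers the Il2rg value was 1.13 (adjusted p = 0.0923) and 0.74 (adjusted p = 0.0604). Leukocyte markers had the same sign in this difference of differences: Ptprc was called at 1.12 (adjusted p = 0.0100), as were 5 of 6 macrophage markers, with a median of 0.69 over the 6, and 2 of 8 T cell markers, and their part in the Il2rg result was not tested. For Il2rb the corresponding value was 1.51 (SE 0.65, adjusted p = 0.142) and for Il15ra 0.31 (SE 0.12, adjusted p = 0.0997), which passed only without aPD1 + aIL2RB replicate 9 (0.37, adjusted p = 0.0206). For Cish the 95% interval was −0.79 to 0.64.

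Il2rb and Il2rg fell further with both antibodies in the later than in the earlier replicate numbers. In aPD1 + aGMCSF + aIL2RB tumors, Il2rb ran from 2.99 to 19.2 CPM in the 6 earlier and from 0.623 to 1.40 CPM in the 5 later tumors, with no overlap. Against the aPD1 tumors of the same numbers the log2 change of Il2rb was −2.40 (adjusted p = 0.00807) in the earlier and −5.58 (adjusted p = 3.90e-09) in the later. That of Il2rg was −0.81 (adjusted p = 0.0673) and −2.28 (adjusted p = 4.23e-09). The differences of these changes in the fit of all tumors, −3.16 for Il2rb (adjusted p = 0.00796) and −1.46 for Il2rg (adjusted p = 0.00671), passed the threshold, as did 9.18% of all genes tested. In the same aPD1 + aGMCSF + aIL2RB tumors the summed T cell markers ran from 11.8 to 73.1 CPM in the earlier and from 2.46 to 6.02 in the later numbers, the NK markers from 6.71 to 34.7 and from 2.00 to 7.48, and Ptprc from 125 to 368 and from 86.8 to 130. The summed colon carcinoma epithelium markers were higher in the later than in the earlier tumors of every group, without overlap. With both antibodies they ran from 0.527 to 3.38 CPM in the earlier and from 3.87 to 10.9 in the later. In isotype control they ran from 7.08 to 8.81 and from 17.7 to 20.7, and in aPD1 from 5.58 to 8.88 and from 14.2 to 28.7. The part of all these markers in this result was not tested.

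With aIL2RB alone, the log2 change of Il2rb was −3.16 in the earlier and −4.25 in the later numbers (adjusted p = 0.000448 and 1.21e-07), that of Il2rg −1.23 and −1.68 (adjusted p = 0.00286 and 3.40e-07) and that of Cish −1.81 and −2.31 (adjusted p = 0.00104 and 0.000102). With both antibodies that of Cish was −2.75 and −3.13 (adjusted p = 0.000132 and 2.40e-06), and the difference between these did not pass the threshold (adjusted p = 0.754). The calls after aPD1 passed in the later numbers and not in the earlier: Il2rg rose by 1.24 (adjusted p = 0.000195) and Jak3 by 0.43 (adjusted p = 0.00623) there, against 0.61 (adjusted p = 0.498) and 0.09 (adjusted p = 0.855) in the earlier numbers, where isotype control had 2 tumors and aPD1 3. The later minus earlier difference of these changes did not pass the threshold, at 0.61 for Il2rg (adjusted p = 0.628) and 0.33 for Jak3 (adjusted p = 0.489). The Il2rb difference between aPD1 and isotype control was 1.10 (adjusted p = 0.532) in the earlier and 1.15 (adjusted p = 0.0467) in the later numbers. Across all treatments, with treatment in the model, Il2rb was 0.98 lower (adjusted p = 0.00827) and Il15 0.33 lower (adjusted p = 0.00294) in the later numbers, and the other 6 genes did not pass, beside 25.1% of all genes called in either direction and 11.5% lower. Some calls against the other groups did not pass within 1 set of numbers. In the earlier numbers Il2rb with aIL2RB was −2.07 against isotype control (adjusted p = 0.0528), and with both antibodies it was −1.31 against isotype control (adjusted p = 0.222) and −1.49 against aPD1 + aGMCSF (adjusted p = 0.170). In the later numbers Cish with aIL2RB was −1.30 against isotype control (adjusted p = 0.103) and −1.15 against aPD1 + aGMCSF (adjusted p = 0.293). Il2rg with both antibodies was lower in the later numbers than in isotype control (−1.05, adjusted p = 0.000472) and aPD1 + aGMCSF (−0.95, adjusted p = 0.000945). Il15ra with both was lower than in isotype control in the later numbers (−0.41, adjusted p = 0.0397). For Il15, the difference between both antibodies and aPD1 was −0.62 in the later numbers (adjusted p = 0.0324).

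Calls against aPD1 also changed within 1 set of numbers. With aGMCSF, Il2rg was −0.71 (adjusted p = 0.239) in the earlier and −1.34 (adjusted p = 2.59e-05) in the later numbers, and Il15ra was −0.34 (adjusted p = 0.154) and −0.33 (adjusted p = 0.0952), passing in neither. Cish with aGMCSF was −0.57 (adjusted p = 0.476) in the earlier and −1.16 (adjusted p = 0.0430) in the later numbers. Il2rb and Jak3 with aGMCSF, not called over all tumors, passed in the later numbers (−1.47, adjusted p = 0.00559, and −0.29, adjusted p = 0.0354). With aIL2RB, Il15ra was −0.33 in the later numbers (adjusted p = 0.0701), and with both it was −0.23 (adjusted p = 0.169) in the earlier and −0.52 (adjusted p = 0.00382) in the later. Jak3 passed in the later numbers with aIL2RB (−0.36, adjusted p = 0.00476) and with both (−0.47, adjusted p = 0.000352), and in neither case in the earlier.

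**Figure D4:**
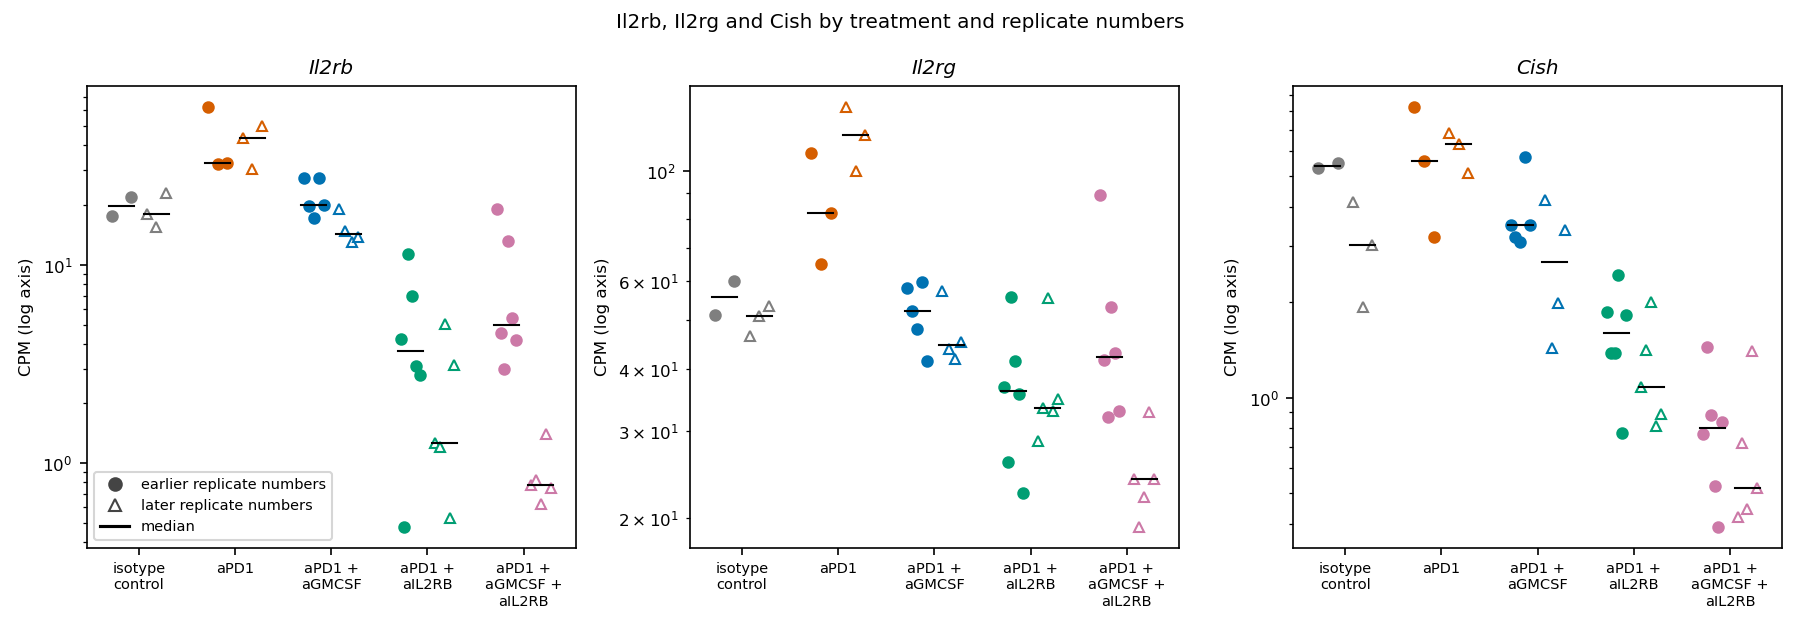
CPM of Il2rb, Il2rg and Cish (log axes) by treatment, split into earlier (filled circles) and later (open triangles) replicate numbers, with the median of each. Il2rb with both blocking antibodies is at 2.99 to 19.2 CPM in the earlier and 0.623 to 1.40 CPM in the later tumors.

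The genes whose log2 CPM ran most closely with Il2rb over the 42 tumors were Sh2d2a (Pearson r = 0.96), Cd3g (0.96) and Cd8b1 (0.95), and for Il2rg they were AW112010 (0.97), C1qc (0.97) and Aoah (0.97). For Il15ra they were Il18rap (0.84) and Gda (0.82), for Il15 Cd83 (0.73), Cyp4v3 (0.73) and Gbp9 (0.71), and for Jak3 Slc12a7 (0.76), Arhgap45 (0.75) and Stx4a (0.75). Cish ran most closely with E2f2 (0.81), B4galnt1 (0.79) and Sept6 (0.79). For Stat5a and Stat5b the closest genes, Agfg2 and Irak4, reached only 0.53 and 0.59. With a prior count of 0.5 in place of 2, Sh2d2a stayed first for Il2rb (0.95) and was followed by Ptpn22 (0.95) and Ms4a4b (0.94), with Cd3g and Cd8b1 outside the first 5. Treatment groups are part of these values, and the tumors share them. After each gene's group means were subtracted, the closest genes were Ptpn22 (0.91), Sh2d2a (0.91) and Cd28 (0.90) for Il2rb and H2-T23 (0.96), Cfb (0.96) and Fgl2 (0.96) for Il2rg. For Cish the highest value then was 0.58 (Vps8).

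Other genes of the pathway were described by 4 lists, to be read beside the shares of all genes given above (6.17% higher after aPD1, and 8.75%, 14.5% and 14.3% lower than in aPD1 with aGMCSF, aIL2RB and both). The first is the cytokines and receptors of the common γ chain family, of which 11 of 12 were in the table and 6 had enough counts to be tested. After aPD1, 2 of the 6 rose, Il21r by 0.68 and Il4ra by 0.65 (adjusted p = 0.0348 and 0.0225), receptor chains for IL-21 and for IL-4 and IL-13. With aGMCSF 4 fell against aPD1, led by Il2ra (−1.34, SE 0.36, adjusted p = 0.0106), the IL-2 receptor α chain, Il7r (−1.11, adjusted p = 0.0495), the IL-7 receptor α chain, and Il4ra (−0.72, adjusted p = 0.00221). With aIL2RB and with both 5 fell, and Il2ra (−1.60 and −1.81, adjusted p = 0.000429 and 0.000127) and Il7r (−1.38 and −1.11, adjusted p = 0.00398 and 0.0217) again led, followed by Il21r (−0.90 and −0.85). Il2ra had means of 5.46 ± 1.28 CPM in isotype control (n = 5), 9.20 ± 3.35 in aPD1 (n = 6), 3.63 ± 1.30 in aPD1 + aGMCSF (n = 9), 3.03 ± 1.66 in aPD1 + aIL2RB and 2.64 ± 2.501 in aPD1 + aGMCSF + aIL2RB tumors (n = 11 each, SD), and its difference between aPD1 and isotype control was 0.75 (SE 0.42, adjusted p = 0.275). No gene of this list passed against isotype control with any blocking antibody. Beside them, of 3 regulatory T cell markers (Foxp3, Ikzf2 and Ctla4) 1 fell against aPD1 with aGMCSF, 3 with aIL2RB and 2 with both, and of 4 neutrophil markers (S100a8, S100a9, Csf3r and Cxcr2) 3, 1 and 2 fell. The summed regulatory T cell markers ran from 36.5 to 44.3 CPM in aPD1, from 28.2 to 36.1 in aPD1 + aGMCSF, from 25.2 to 36.9 in aPD1 + aIL2RB and from 23.3 to 43.9 in aPD1 + aGMCSF + aIL2RB tumors, and the neutrophil markers from 17.5 to 43.95, 9.32 to 17.2, 6.27 to 16.4 and 4.85 to 30.03 CPM. Each of these sums rests mostly on 1 gene. Median counts over all tumors were 538.5 for Ikzf2, against 29.85 for Foxp3 and 36 for Ctla4. They were 224.5 for Csf3r, against 4 for S100a8, 5.5 for S100a9 and 8.1 for Cxcr2. The part of these and of the other leukocyte markers in the values of the 4 lists was not tested.

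Of 7 other JAK and STAT genes, 4 rose after aPD1, led by Stat4 (1.37, adjusted p = 0.0204), which transmits IL-12 signals, Stat2 (0.79, adjusted p = 0.0130), which transmits interferon signals, and the kinase gene Tyk2 (0.48, adjusted p = 0.0150). Against aPD1, 5 fell with each blocking treatment. Stat4 fell by 1.02 with aGMCSF, 2.03 with aIL2RB and 1.92 with both (adjusted p = 0.0276, 3.68e-06 and 1.04e-05), Stat2 by 0.77, 0.58 and 0.62 (adjusted p = 0.00244, 0.00703 and 0.00404) and Tyk2 by 0.38, 0.45 and 0.49 (adjusted p = 0.0152, 0.000988 and 0.000426). Jak1, whose protein pairs with JAK3 on these receptors and which was named for that role after its values were seen, fell by 0.16, 0.17 and 0.13 (adjusted p = 0.00947, 0.00243 and 0.0152). Stat6 and Jak2 passed in none of these comparisons.

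Among 13 STAT5 target and feedback genes other than Cish, 12 were tested. After aPD1 only Mcl1, a survival factor, passed (0.31, adjusted p = 0.0111), a share near that of all genes. With aGMCSF 4 fell, with aIL2RB 7 and with both 8, and none rose. T cell, NK and macrophage markers fell in the same comparisons, though with aGMCSF only 2 of 8 T cell and 1 of 5 NK markers passed. With aIL2RB the largest decreases were those of Pim1 (−0.84, adjusted p = 0.00381), a kinase, and of the feedback inhibitors Socs3 (−0.81, adjusted p = 0.000229) and Socs2 (−0.79, adjusted p = 0.00436). With both, Pim1 (−1.19, adjusted p = 8.76e-05), Socs3 (−0.93, adjusted p = 4.46e-05) and Socs1 (−0.73, adjusted p = 0.000444) led, and with aGMCSF Socs2 (−1.05, adjusted p = 0.00154), Pim1 (−0.73, adjusted p = 0.0300) and Socs3 (−0.62, adjusted p = 0.0134). Bcl2, another survival factor, was lower with aIL2RB and with both antibodies than with aGMCSF (−0.31 and −0.32, adjusted p = 0.0174 and 0.0139), as was Pim2, a kinase gene, with aIL2RB (−0.43, adjusted p = 0.0402). The median of the list was −0.30, −0.35 and −0.35 for the 3 blocking treatments against aPD1.

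Of 11 downstream adaptors and enzymes, the phosphatase gene Ptpn6 and the kinase subunit gene Pik3cd, both abundant in leukocytes, had the largest changes. They rose after aPD1 by 0.82 and 0.79 (adjusted p = 0.00914 and 0.00494) and fell against it by 0.78 and 0.66 with aGMCSF (adjusted p = 0.00206 and 0.00264), 1.21 and 1.10 with aIL2RB (adjusted p = 5.98e-07 and 3.72e-07) and 1.19 and 1.07 with both (adjusted p = 1.07e-06 and 6.49e-07). Grb2, an adaptor, came next, with 0.18 after aPD1 and −0.17, −0.27 and −0.33 with the blocking treatments. Shc1, the adaptor that binds the β chain, went the other way and was higher than in aPD1 with aIL2RB (0.18, adjusted p = 0.000541) and with both (0.12, adjusted p = 0.0150), as was Sos1 with both (0.20, adjusted p = 0.0299). Pik3r1 was higher than in isotype control with both (0.49, adjusted p = 0.00958).

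**Figure D5:**
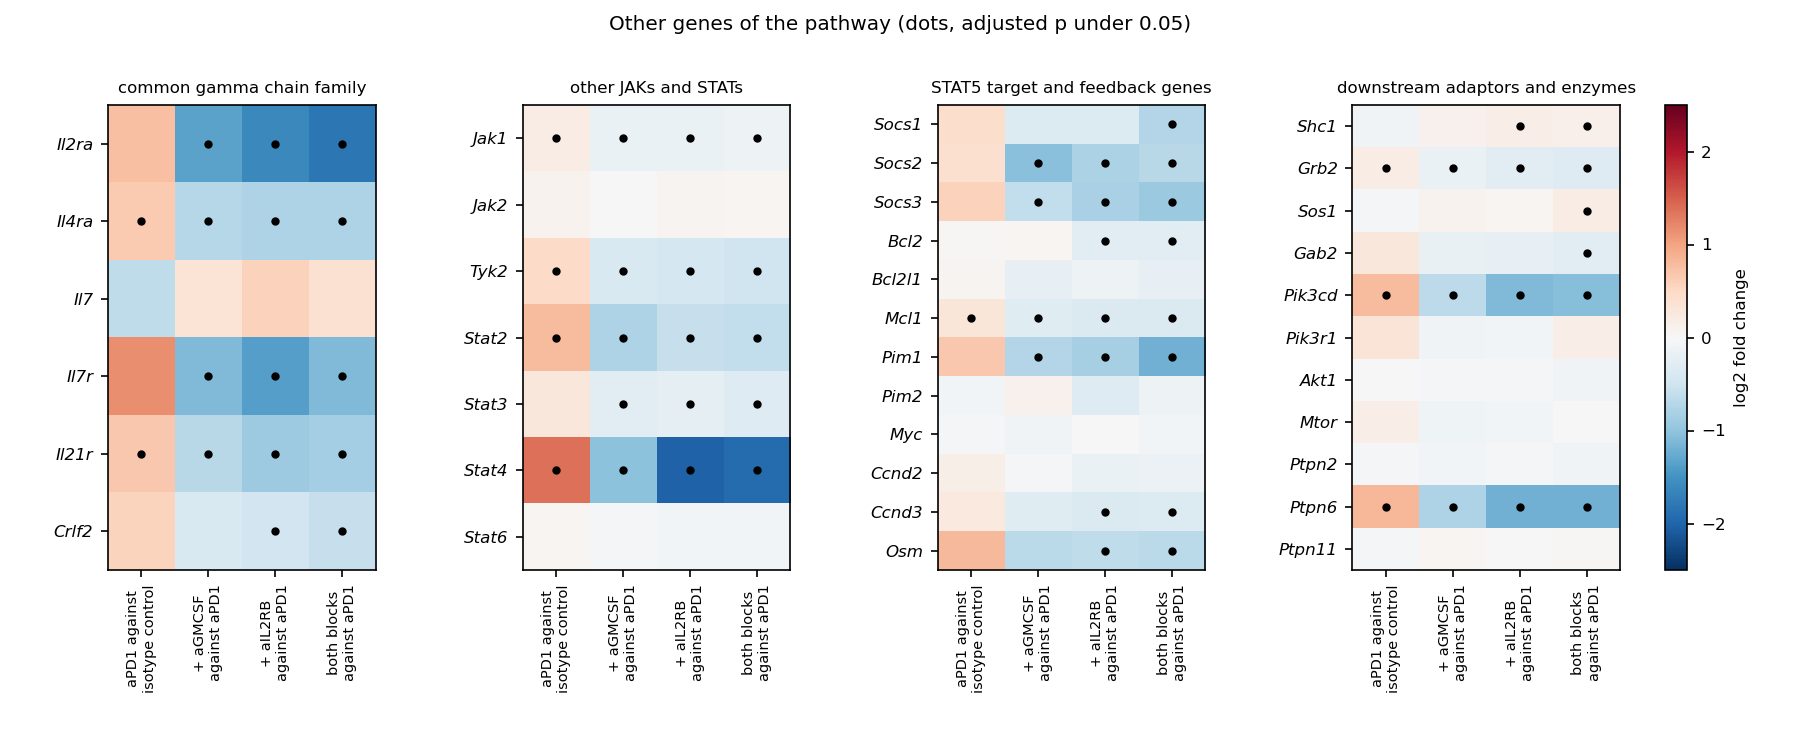
log2 fold changes (color) of the other pathway genes tested, by list, for aPD1 against isotype control and for each blocking treatment against aPD1, with a dot where the adjusted p of edgeR was under 0.05. Most dots are on increases after aPD1 and decreases with blocking antibodies, with Stat4 at −2.03 with aIL2RB the largest decrease, while Shc1 and Sos1 are increases.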

How the data were processed

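Expected counts per gene were deposited by the authors, who aligned 100-base paired reads with Bowtie 1.2.3 to transcriptomes of the Collaborative Cross founder strains, built from GRCm38, and summed the founder haplotypes of each gene, with no normalization. They gave reads shared by similar genes in part to each, and 15.2% of values were not whole within 1e-06. Of 26811 identifiers, 26629 matched a symbol. Counts were rounded and tested with edgeR 4.0.16 in R 4.3.3 (TMM, filterByExpr with a count minimum of 10 and a total of 15, quasi-likelihood test, all 42 tumors in 1 model with group as the only term). P-values were adjusted by Benjamini-Hochberg over 16932 genes with a threshold of 0.05, and intervals are 95% and unadjusted. The study's methods name DESeq2, used here as an alternative (1.42.0). The test was tried on simulated data first. CPM were computed from the unrounded counts with TMM factors, and likeness from log2 CPM with a prior count of 2, among genes with a mean of at least 1. Totals per tumor ranged from 7155486 to 24101674 counts. Cish rested on as few as 4 counts in a tumor and Il2rb on 9. No pair of tumors agreed within sampling noise.

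The genes, lists, markers and the division of replicate numbers were chosen with earlier results of these data known. All 8 genes were named in every comparison, and of each pathway list up to 3 genes per direction, those past the threshold with the largest change. The ratios to markers and the marker sums by replicate number were added after the values were seen and carry no test. Alternatives were DESeq2, its size factors, library size only, other filters on low counts, only the groups compared, the replicate number as a block, the earlier or later numbers as a term or alone, and each tumor left out. Sequences and promoter windows came from RefSeq (GRCm38.p6) and gene models from GENCODE vM21, whereas the authors used vM23. Figures were drawn with matplotlib 3.10.9. Some genes of the lists and of the genes most alike are not reported here.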

Additional observations from a re-analysis of the deposited data

Results flagged for a closer look

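Il15 in aPD1 replicate 3 was at 6.38 CPM, apart from the other 5 tumors of its group, of which the nearest was at 7.29 CPM. It was the only tumor so far from its group among 24 combinations of gene and group examined. By chance about 1 in every 20 combinations is flagged. The groups given aIL2RB (n = 11 each) were not examined.

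The change of Il2rb with both blocking antibodies against aPD1 differed between the later and the earlier replicate numbers by −3.16 on the log2 scale (SE 0.77, adjusted p = 0.00796, edgeR), and that of Il2rg by −1.46 (SE 0.35, adjusted p = 0.00671). With DESeq2 these differences were −3.23 and −1.49 (adjusted p = 0.00264 and 0.00217). Each of the 5 later aPD1 + aGMCSF + aIL2RB tumors had less Il2rb than each of the 6 earlier ones.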

How the results depend on the processing

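Over the 55 log2 fold changes of the 8 genes that were larger than their SE and 1512 alternative fits, 1445 kept direction and side of the threshold, 46 lost and 17 gained a call and 4 changed sign. The 33 smaller ones changed sign in 183 of 986 fits. The 5 genes lower with aIL2RB than with aPD1 went to 3 among genes with at least 10 counts in every tumor, a filter that leaves Il2rb and Cish untested, and to 4 to 5 with tumors left out. The 5 lower with both antibodies went to 2 in the earlier replicate numbers and 5 to 6 with tumors left out. The 3 lower with aGMCSF went to 1 with library size only, 0 in the earlier numbers and 2 to 3 with tumors left out. The 2 higher after aPD1 went to 1 with library size only, a total of at least 5 counts or the replicate block, to 0 in the earlier numbers and to 0 to 2 with tumors left out, with 0 without aPD1 replicate 4. Against isotype control, the 2 called with aIL2RB went to 0 under the filter of 10 counts and 1 in the earlier and 1 in the later numbers, and the 2 called with both went to 0, 1 and 4, and 2 to 3 with tumors left out. Against aPD1 + aGMCSF, the 2 called with aIL2RB went to 0 under that filter and 1 in the later numbers, and the 2 called with both to 0 under it, 1 in the earlier numbers and 2 to 3 with tumors left out. Between aPD1 + aGMCSF + aIL2RB and aPD1 + aIL2RB the count of 0 went to 1, Il2rg, in the later numbers. The 1 gene of the difference of differences, Il2rg, went to 0 with the replicate block and in the earlier and in the later numbers, and the count to 1 to 2 with tumors left out, with 2 without aPD1 + aIL2RB replicate 9. The 2 genes differing between the numbers went to 1 under the filter of 10 counts. Sign changed for Jak3 with aGMCSF against aPD1 (0.0462), Il15 with both against aPD1 (0.0806) and Il15ra with both against isotype control (0.106) in the earlier numbers, and for Stat5b with aIL2RB against aPD1 with library size only (0.000483). Apart from the filter, the cause was not tested. The replicate numbers did not pair the tumors: deviations from group means correlated by −0.168 to 0.193 over 67 pairs of the same number, with 16 over 0.1, and 8 of 42 tumors correlated best with their own number. With the replicate block the calls lost were Jak3 after aPD1 (0.26, adjusted p = 0.0594), Cish with aGMCSF (−0.68, adjusted p = 0.0797), Jak3 with aIL2RB (−0.19, adjusted p = 0.0644) and Il2rg in the difference of differences (0.84, adjusted p = 0.0618).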
